A study of Mus musculus with 8 samples.

Results

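The open chromatin of undamaged mouse hepatocytes was described from 2 ATAC-seq libraries, the 0 h group of a partial hepatectomy (PHx) time course of 8 libraries. Both came from livers that had not been operated on, in C57BL/6 mice 10 to 12 weeks old on a normal diet. The animals were male and of the substrain C57BL/6J in the study's methods. Hepatocytes were freed from the liver by collagenase perfusion in 2 steps, and nuclei from these cells were treated with the Tn5 transposase, which inserts sequencing adapters where DNA is accessible. The study describes 3 biological replicates from separate hepatocyte preparations, of which 2 libraries labelled 0 h are analysed here. The labels number them as replicates 1 and 2 and do not tie them to animals or preparations. Each library had its own list of peaks, with 126773 distinct intervals in replicate 1 and 105206 in replicate 2. The 50000 intervals with the highest −log10 p were kept in each list, and kept intervals that overlapped by at least 1 bp were merged. Of 57237 merged intervals, 41778 (73.0%) were covered in both libraries, and these shared regions are described here. They covered 30.5 Mb, or 1.12% of chromosomes 1 to 19, X and Y. With 2 libraries of 1 group no comparison could be tested, so all results are levels and counts, given for each library where that applies.

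DNA wrapped in nucleosomes is largely closed to the transposase, while active promoters, enhancers and sites held by the insulator protein CTCF are open. Promoters of genes that every cell uses are usually rich in CpG and open in all tissues, whereas most cell type genes are controlled by enhancers far from the start of transcription. In the hepatocyte such enhancers are bound by combinations of HNF4A, FOXA, C/EBP, HNF1 and ONECUT factors, which keep genes for plasma proteins, lipid export, urea synthesis and detoxification active. In a pool of nuclei, a site open in fewer nuclei and a site less open in each nucleus cannot be told apart.

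The sequences of 8 regions are shown because the results turn on them. Each is 200 bases around a region's summit, the base with the highest signal, read from the plus strand of GRCm38.p6 (mm10). The first pair holds the strongest promoter region, at the predicted gene Gm20594, and the strongest distal region, in an intron of Tbx20, where capitals mark bases inside runs of 25 or more that are identical to the mitochondrial genome.
Gm20594 promoter, chr6:79818149-79818348: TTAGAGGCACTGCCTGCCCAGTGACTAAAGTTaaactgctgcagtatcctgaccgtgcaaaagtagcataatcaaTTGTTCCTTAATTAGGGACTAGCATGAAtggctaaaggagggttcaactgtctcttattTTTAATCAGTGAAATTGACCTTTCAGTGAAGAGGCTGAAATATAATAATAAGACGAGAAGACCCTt
Tbx20 intron, chr9:24745072-24745271: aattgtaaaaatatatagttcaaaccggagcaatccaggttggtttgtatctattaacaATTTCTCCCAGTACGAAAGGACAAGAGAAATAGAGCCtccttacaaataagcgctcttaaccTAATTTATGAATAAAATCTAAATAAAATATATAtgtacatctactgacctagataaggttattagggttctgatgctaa
The next pair holds the strongest promoter and distal regions with no such run, near the start of Ski and in an intron of Nav3, where capitals mark any of the 20 motifs searched. The Ski window held none of them. This pair was added after the values were seen.
Ski promoter, chr4:155223253-155223452: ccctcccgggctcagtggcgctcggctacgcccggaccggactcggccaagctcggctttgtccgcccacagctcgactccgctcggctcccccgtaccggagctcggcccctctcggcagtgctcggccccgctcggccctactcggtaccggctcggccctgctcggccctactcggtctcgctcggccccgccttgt
Nav3 intron, chr10:110455823-110456022: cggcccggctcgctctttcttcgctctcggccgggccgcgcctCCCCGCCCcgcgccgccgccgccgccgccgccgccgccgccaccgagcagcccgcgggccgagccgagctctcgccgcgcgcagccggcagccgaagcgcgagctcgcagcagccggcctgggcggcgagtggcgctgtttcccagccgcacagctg
The last 4 are the strongest distal regions of hepatocyte genes with a motif for HNF4, FOXA, C/EBP or HNF1, marked in capitals. The nearest genes were Alb at 13108 bp, Abcb4 at 34868 bp, Prodh at 18202 bp and Cebpa at 24763 bp.
HNF4 motif near Alb, chr5:90447689-90447888: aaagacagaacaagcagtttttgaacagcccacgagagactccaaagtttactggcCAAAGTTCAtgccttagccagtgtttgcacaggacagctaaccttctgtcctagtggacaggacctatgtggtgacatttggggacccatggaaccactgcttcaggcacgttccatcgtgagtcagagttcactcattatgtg
FOXA motif in Abcb4, chr5:8928485-8928684: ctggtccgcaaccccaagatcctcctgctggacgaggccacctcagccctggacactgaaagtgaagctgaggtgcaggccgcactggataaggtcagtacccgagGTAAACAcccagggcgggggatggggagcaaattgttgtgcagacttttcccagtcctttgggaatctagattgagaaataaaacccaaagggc
C/EBP motif near Prodh, chr16:18108305-18108504: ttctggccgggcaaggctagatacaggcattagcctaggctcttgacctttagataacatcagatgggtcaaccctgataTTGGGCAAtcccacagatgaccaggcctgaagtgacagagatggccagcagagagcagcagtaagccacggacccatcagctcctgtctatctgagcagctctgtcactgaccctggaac
HNF1 motif near Cebpa, chr7:35143966-35144165: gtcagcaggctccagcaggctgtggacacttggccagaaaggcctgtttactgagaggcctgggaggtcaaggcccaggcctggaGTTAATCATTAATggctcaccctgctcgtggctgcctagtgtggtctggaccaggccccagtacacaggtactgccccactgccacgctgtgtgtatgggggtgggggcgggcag

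The libraries ranked the shared regions alike. Regions were ordered by their rank in the library where they ranked lower, so that order 1 is the strongest. The Spearman correlation of the ranks was 0.796 over 41778 regions, as a description of 2 libraries, and it was 0.885 over promoter regions and 0.699 over distal ones. Fold enrichment, the peak caller's ratio of signal to local background at the summit, had a median ratio of 1.01 between replicates 1 and 2. It differed by more than 2-fold in 268 regions (0.641%). The −log10 p was higher in replicate 1 in 85.3% of regions, although the folds were level, and the read depth of the libraries is unknown because the lists hold no counts. Summits lay a median of 14 bp apart, and 88.0% lay within 50 bp of each other. Of the 1000 best intervals by rank in each library, 694 were the same regions.

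**Figure D1:**
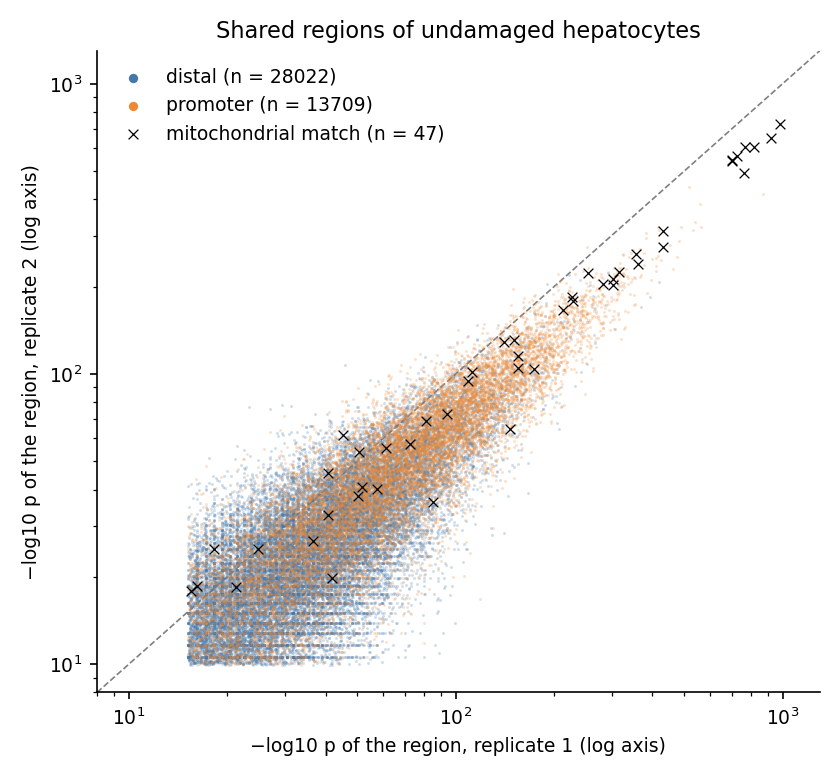
Each point is a shared region, with its −log10 p in replicate 1 on the x axis and in replicate 2 on the y axis, both logarithmic, and the dashed line marks equal values. Crosses are the 47 regions with a run of mitochondrial sequence, which include 8 of the first 10, and most points lie under the line because the −log10 p was higher in replicate 1 in 85.3% of regions.

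Intervals kept in 1 library only were mostly distal and in the lower ranks. The last interval kept had a −log10 p of 15.2 in replicate 1 and 9.96 in replicate 2, and the next in each list, left out, had 15.2 and 9.96. Of the merged intervals, 7599 were covered only in replicate 1 and 7860 only in replicate 2. Most of these were in the other library's full list as well, 87.7% and 95.5%, below the 50000 kept. The remaining 934 and 353 were in no interval of the other list. Of the 7599 and 7860 intervals, 13.0% and 12.9% lay at promoters. Their median ranks were 41355 and 41853, and the best were 6565 and 9555.

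The very strongest regions carried mitochondrial sequence. Across the map, 47 of 41778 regions (0.112%) held at least 25 bases in a row identical to the mitochondrial genome on either strand, with a longest identical run of 26 to 242 bp and a median of 39 bp. They made up 8 of the first 10 regions, 10 of the first 20, 16 of the first 100 and 21 of the first 1000. The lists held no interval on the mitochondrial genome itself, and the part of mitochondrial reads in these regions was not tested. Of the 47, 23 lay at promoters, but only 2 of those were promoters of coding genes.

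The region at order 1 was chr6:79818017-79818417, ranked 1 in both libraries, with a fold of 36.3 in replicate 1 and 36.6 in replicate 2. It lay at the start of Gm20594, a predicted gene, and its longest mitochondrial run was 65 bp. Order 2 was the intron of Tbx20, a transcription factor gene of the heart, at chr9:24745017-24745330, with folds of 48.7 and 51.4 and a run of 37 bp. Order 3 was intergenic at chr2:69355467-69355736, with the highest folds of the first 20, 54.5 and 53.4, and a run of 129 bp. Its nearest coding start was that of Abcb11, the bile salt export pump, 12988 bp away. None of these 3 regions lay at the start of a gene of the hepatocyte lists.

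Orders 4 to 8 were of the same kind. Orders 4 to 7 lay at the starts of noncoding or predicted genes, AC124578.3, Gm11512, Gm43743 and Gm43841, and order 8 was intergenic, 131178 bp from Bambi. The folds were 48.7 and 51.2 at AC124578.3, 24.2 and 25.3 at Gm11512 and 44.7 and 45.2 at Gm43743. They were 45.3 and 46.1 at Gm43841 and 49.1 and 48.9 at the intergenic region. Their longest mitochondrial runs were 34 to 55 bp. None of the 5 was at the promoter of an annotated coding gene.

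Without these matches, an order set up after the values were seen, the top of the map was made of promoters of coding genes, most of them GC-rich. Order 9 lay at Ski, a repressor of TGF-beta signalling, at chr4:155222763-155223666, with folds of 28.1 and 24.6. Order 10 lay at Gna11, a G protein subunit, at chr10:81544954-81545585, with folds of 23.8 and 25.02. All of the first 20 regions without a mitochondrial run were promoters of coding genes, with folds of 18.1 to 33.1 in replicate 1 and 18.5 to 34.3 in replicate 2. They were 575 to 1367 bp wide, and their summit windows had a GC content of 56.0% to 78.5%.

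Among them were Ccna2, cyclin A2 of the cell cycle, with folds of 33.1 and 31.4. Cep128, a centriole protein, had folds of 32.8 and 34.3 at a region that also lies at a start of Tshr, the thyrotropin receptor. Hspa13, a chaperone of the HSP70 family, had folds of 28.7 and 28.7. The others of the first 10 without a mitochondrial run were at Yipf6, Commd3, Anp32b, Pik3r2 and Deaf1. None of the first 20 belonged to a gene of the hepatocyte lists used below. The libraries placed these 20 regions at most 17 ranks apart.

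Promoters held the strongest part of the map and distal regions its bulk. A region was called a promoter if any of its bases lay within 1 kb of an annotated start of transcription, and 13732 regions (32.9%) did. Windows of that size around all annotated starts hold 4.25% of the bases of the genome, a share not directly comparable with that of regions, which are wide and count as promoters if any base lies within reach. Introns held 15232 regions (36.5%), intergenic sequence 11336 (27.1%), coding exons 638 (1.53%) and other exons 840 (2.01%). The median fold of promoter regions was 11.0 in replicate 1 and 11.2 in replicate 2, and of distal regions 9.61 and 9.26. Promoter regions were wider, with a median of 921 bp against 579 bp. Their summit windows had a median GC content of 65.0% against 50% and a median CpG ratio, observed over expected CpG, of 0.784 against 0.222.

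The promoter share fell with strength. It was 91.0% for the first 100 regions, 89.4% for the next 900 and 60.4% for the next 9000. It was 33.1% for the 10000 regions after these, 21.4% for the following 10000 and 16.6% for the last 11778. Over the first 1000 regions it was 89.6%, and 90.1% when the 21 regions with mitochondrial runs were set aside. The share in introns moved the other way, from 4% of the first 100 to 46.9% of the last class.

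**Figure D2:**
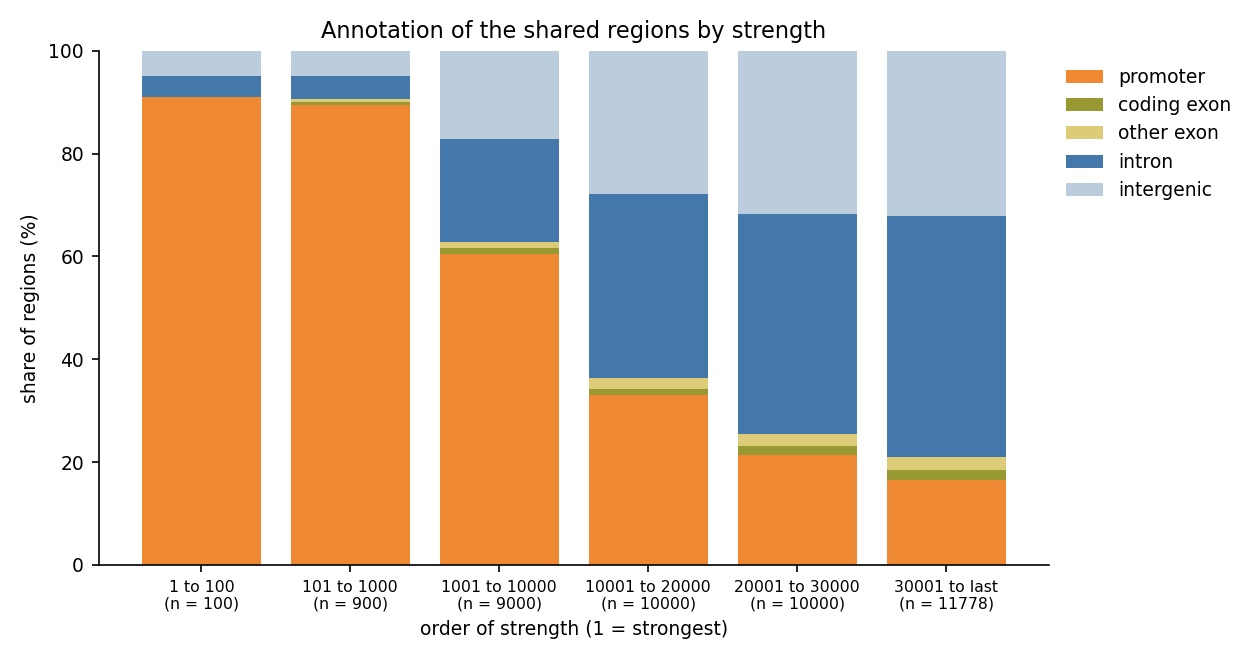
Stacked bars give the share of regions in each annotation class, in percent, for 6 classes of strength from the strongest on the left to the weakest on the right, with the number of regions under each bar. Promoter regions fall from 91.0% of the first 100 to 16.6% of the last class, while introns rise from 4% to 46.9%.

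The strongest distal regions were a mixed set. Of the first 20, 7 had mitochondrial runs, 7 lay in introns, 11 between genes and 2 in exons. The first 5, at orders 2, 3, 8, 20 and 34, all had such runs, and the one at order 20 lay in an intron of Zdhhc3 with folds of 39.4 and 36.5. The region at order 34 lay in an intron with folds of 19.8 and 21.7. The strongest without a run was order 60, in an intron of Nav3 at chr10:110455572-110456270, with folds of 33.2 and 29.8. Its summit window had a GC content of 82.0%, like a CpG-rich promoter, but no start of the basic gene set used here lay within 1 kb. The nearest start in that set was 24714 bp away, and the nearest coding one was that of E2f7, at 289542 bp. Starts outside that set, such as others of Nav3 itself, were not examined, so this region may be a promoter.

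Order 66 was intergenic, 7987 bp from Glis2, a zinc finger factor, with folds of 24.6 and 24.7. Order 79 was intergenic, 57195 bp from Sept5, with folds of 26.0 and 27.4 and a C/EBP motif. Order 102 was intergenic, 12968 bp from Phlda3, with folds of 38.3 and 31.5, and held the CTCF motif. It was the only CTCF match among the first 20 distal regions. Order 72, intergenic and 1766045 bp from the nearest coding start, that of G6pd2, had folds of 26.3 and 24.9 and a mitochondrial run of 141 bp. Among the distal regions without runs, 1 at order 150 in an intron of Il1rapl1, the most enriched of the first 20 distal regions without runs and chosen after its values were seen, had folds of 50.2 and 40.3, was 206 bp wide and was 65.5% interspersed or simple repeat. None of the first 10 distal regions lay nearest to a hepatocyte list gene except the region near Abcb11.

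CTCF and hepatocyte factor motifs were more frequent in distal than in promoter windows, and motifs of general promoter factors more frequent in promoter windows. The split was not complete, as some motifs of each kind stood above their flanks in both. Motifs were searched as fixed letters on both strands in the 200 bp around each summit, and the mean share of windows centred 1000 bp to either side of the summit with a match served as local background. A match is a description of sequence and not of binding. The CTCF motif, searched as a degenerate pattern, was in 3310 of 28046 distal windows (11.8%) against 0.424% in their flanks, a ratio of 27.8. Among promoter windows it was in 393 (2.86%) against 0.364%. It was the most centred of the motifs in distal regions, with 26.2 matches per 20 bp and 1000 regions within 40 bp of the summit and 0.371 at 400 to 500 bp.

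The HNF4 motif (CAAAGTNCA), of the nuclear receptor that maintains hepatocyte identity, was in 4.51% of distal windows against 1.01% in flanks. The HNF1 motif, searched as a degenerate pattern, was rare at 0.588% but 12.2 times its flanks. The C/EBP motif (TTNNGCAA) was in 15.8% against 8.02%, and the HNF6 motif (ATTGATTT) of the ONECUT factors in 2.45% against 0.964%. The FOXA motif (TNTTTAC) is short and common, and its 13.0% stood close to 11.4% in flanks. In promoter windows FOXA and C/EBP motifs were rarer than in their flanks, at 4.60% against 11.4% and 5.77% against 8.61%.

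Of the remaining motifs in distal windows, AP-1 (TGANTCA), bound by JUN and FOS, was in 8.70% against 5.81% in flanks. NR5A2 (CAAGGTCA), STAT (TTCNNNGAA) and TEAD (ACATTCCA) motifs and the motif of GATA factors (AGATAAG) differed from their flanks by 1.26, 0.954, 1.04 and 1.08 times. The glucocorticoid receptor and NFI patterns, both degenerate and long, were in 0.228% and 0.257%, against 0.139% and 0.103% in flanks. PU.1 (GAGGAAGTG), the factor of myeloid and B cells, was in 0.449% of distal windows and in 0.540% of their flanks. PU.1 matches were thus no more frequent at distal summits than nearby, whereas in promoter windows they were in 0.692% against 0.426% in flanks.

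In promoter windows the GC box of SP and KLF factors (GGGCGGGG) was in 25.7% against 2.47% in flanks. The ETS motif (CCGGAAGT) was in 5.59% against 0.284%, the NRF1 motif (CGCATGCG) in 1.88% against 0.120%, YY1 (AANATGGCG) in 3.20% against 0.269% and ZBTB33 (CTCGCGAG) in 1.33% against 0.0546%. NFY (CCAATCA), the CCAAT box factor, was in 5.94% against 1.97%, and its matches were most frequent to either side of the summit, as the profile of matches around summits shows. In distal windows the GC box was in 2.38% against 0.902%, and in 8.1% against 0.9% for the first 1000. ETS, NRF1 and ZBTB33 motifs stood at 2.17, 2.47 and 5.2 times their distal flanks, in 104, 37 and 13 windows. YY1 and NFY stood at 1.2 and 1.08 times. HNF1 was 2.8 times its flanks in promoter windows, in 21 of them. Flanks differ from summits in GC content, which these ratios do not adjust for.

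**Figure D3:**
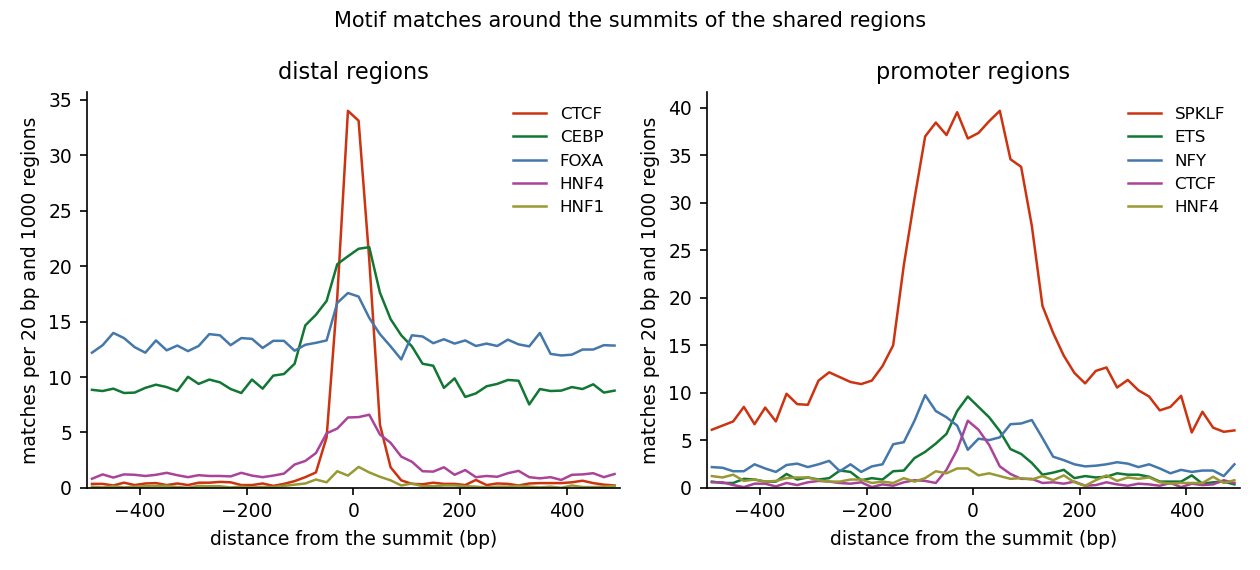
Lines give the number of motif matches per 20 bp and 1000 regions by distance from the summit in bp, for distal regions on the left and promoter regions on the right, with SPKLF the GC box. In distal regions CTCF matches are the most sharply centred and HNF4, C/EBP and FOXA matches rise over their flanks at the summit, and in promoter regions the GC box forms the highest peak.

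Distal regions with CTCF held hepatocyte motifs less often than distal regions at large, in windows that were not matched for GC content. Of the 3310 CTCF windows, 2713 had none of the hepatocyte motifs, and of all distal windows 66.9% had none. Of 18755 distal windows with none of 7 hepatocyte motifs (HNF4, FOXA, C/EBP, HNF1, NR5A2, NFI and HNF6), 14.5% held CTCF. The share was 7.07% of 7882 windows with 1, 2.98% of 1343 with 2, and 0 of 66 with 3 or more. Median fold hardly moved with their number, from 9.61 and 9.17 with none to 10.1 and 9.42 with 3 or more. It was higher in distal regions with CTCF, at 10.7 in replicate 1 and 9.71 in replicate 2, than in those without, at 9.42 and 9.15. By order of strength, however, CTCF was rarer among the strongest distal regions. The motif was in 7.6% of the first 1000, 11.4% of the next 9000 and 12.3% of the other 18046.

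Hepatocyte genes had open promoters more often than coding genes at large. Across 7 hepatocyte lists, 102 of 133 genes (76.7%) had a shared region within 1 kb of a coding start, against 12002 of 21851 coding genes (54.9%). A distal region was given to the coding gene with the nearest start within 50 kb, and 113 of the 133 genes (85.0%) had at least 1, against 9353 coding genes (42.8%). At least 3 were found at 55 of the 133 (41.4%) against 2341 coding genes (10.7%). The excess at promoters depends on how many intervals are kept: with 25000 per library, 57 of 133 (42.9%) had a promoter region against 43.6% of coding genes.

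The open hepatocyte promoters were of middling strength. The median order of a gene's best promoter region was 18919 for the 102 hepatocyte genes, 11916 for ribosomal protein genes and 8856.5 for all coding genes with one. Their median fold was 5.98 in replicate 1 and 6.71 in replicate 2, against 11.7 and 12.0 over all such coding genes. The distal regions of hepatocyte genes had median folds of 6.66 and 6.79 against 9.22 and 8.87 for those of all coding genes. By order these distal regions were not weaker, with a median of 24746.5 against 25091. Hepatocyte genes thus had many regions with modest enrichment over local background.

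Most hepatocyte genes have CpG-poor promoters, and among such genes the difference was larger. With a CpG ratio under 0.5 in the 500 bp around every coding start, 62 of 92 CpG-poor hepatocyte genes (67.4%) had a promoter region, against 1269 of 8584 CpG-poor coding genes (14.8%). With 25000 intervals per library the shares were 27.2% and 8.05%. Of the 41 CpG-rich hepatocyte genes, 40 had a promoter region, beside 10733 of 13267 CpG-rich coding genes (80.9%). The limit of 0.5 was chosen after the values were seen.

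**Figure D4:**
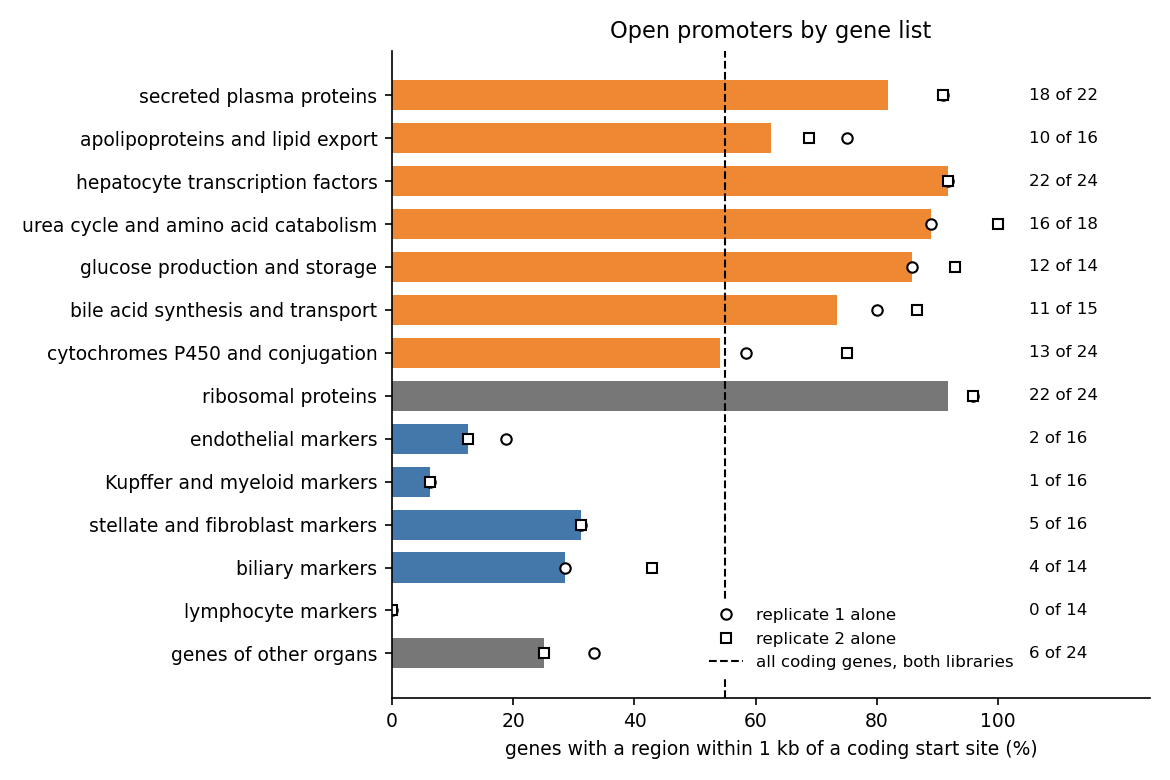
Bars give the percentage of genes in each list with a shared region within 1 kb of a coding start, with counts at the right, for hepatocyte lists in orange, other liver cell types in blue and the remaining lists in grey. Open circles and squares give replicates 1 and 2 alone and the dashed line marks 54.9%, the share of all coding genes, above which stand all hepatocyte lists except cytochromes P450 and conjugation. With 25000 intervals per library the lists of plasma proteins, apolipoproteins and bile acid genes also fall below the share of coding genes, then 43.6%.

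Genes of secreted plasma proteins had a promoter region in 18 of 22 cases and a distal region in 20. With 25000 intervals per library the former count was 8, or below the 43.6% of coding genes at that setting. The strongest region of the list was distal, 2909 bp from Ambp, the precursor of alpha-1-microglobulin and bikunin, with folds of 11.2 and 10.6 at order 3346. Ahsg, fetuin-A, had a distal region 8000 bp away at order 5054 with folds of 4.01 and 4.395. Hpx, the heme carrier hemopexin, had a promoter region at order 6043 with folds of 5.28 and 8.81. Alb, serum albumin, had no shared promoter region but 7 distal ones, and the strongest, 13108 bp away, had folds of 12.4 in both libraries and holds the HNF4 motif shown above. At the Alb promoter the best interval ranked 35178 in replicate 1 and 52573 in replicate 2, so it fell just below the limit in the latter. Serpina1a and Serpina3k also had none, each with 1 distal region, at orders 15743 and 19760. Serpina1 genes lie in clusters of near-identical copies, and whether reads were split between them was not tested.

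Among apolipoprotein and lipid export genes 10 of 16 had a promoter region and 11 a distal one. The promoter count was 5 with 25000 intervals per library, below the 43.6% of coding genes. Abca1, the cholesterol exporter, had its best promoter region at order 2721 with folds of 12.1 and 12.2, and 8 distal regions. Lcat, which esterifies cholesterol in plasma, had a promoter region at order 3069 with folds of 12.3 and 12.2. Apoe and Lipc had distal regions only. At Apoe the distal region 1981 bp away had order 6342 with folds of 6.93 and 6.48, while its promoter intervals ranked 64651 and 67315.

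Hepatocyte transcription factor genes had a promoter region in 22 of 24 cases and a distal region in 22. Both shares are 91.7%, beside 54.9% and 42.8% of all coding genes. Of the 24, 16 are CpG-rich, and 15 of these (93.8%) had a promoter region, beside 80.9% of CpG-rich coding genes. Of the 8 CpG-poor ones 7 did (87.5%), beside 14.8%. At least 3 distal regions were found at 17 of the 24 (70.8%), beside 10.7% of all coding genes. Nfib, a nuclear factor I gene, had 10, and its best, in an intron 7495 bp from a start, had order 1809 with folds of 15.6 and 13.4. Hnf4a had its promoter region at order 1818 with folds of 13.4 and 14.7. Tbx3, a marker of hepatocytes near the central vein, had a promoter region at order 1876 with folds of 13.4 and 12.8. Creb3l3 and Prox1 had no shared promoter region, and Creb3l3 had none in either full list.

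Genes of urea synthesis and amino acid breakdown had promoter regions in 16 of 18 cases (88.9%), beside 54.9% of all coding genes. The count was 9 with 25000 intervals per library, where 43.6% of coding genes had one. Prodh, proline dehydrogenase, was led by the intergenic region with the C/EBP motif shown above, at order 3657 with folds of 19.1 and 27.6. Gls2, the glutaminase of periportal hepatocytes, had a promoter region at order 3955 with folds of 12.3 and 9.57. Slc25a15, the mitochondrial ornithine carrier, had one at order 5675 with folds of 8.74 and 8.08. Cps1, the entry enzyme of the urea cycle, had 4 distal regions and no shared promoter region, its promoter interval ranking 51312 in replicate 1 and 28772 in replicate 2. Sds had neither, with promoter intervals ranked 58001 and 38540.

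Genes of glucose production and storage had promoter regions in 12 of 14 cases and distal ones in 13. These shares are 85.7% and 92.9%, beside 54.9% and 42.8% of all coding genes. Slc37a4, the glucose 6-phosphate carrier, had a promoter region at order 2749 with folds of 12.2 and 9.47. Fbp1, a gluconeogenic enzyme, had a distal region 19953 bp away at order 4493 with folds of 12.6 and 14.1. Pck1 and G6pc, both gluconeogenic enzymes, had 4 and 2 distal regions and no shared promoter region.

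Genes of bile acid synthesis and transport had promoter regions in 11 of 15 cases, and in 4 with 25000 intervals per library, below the 43.6% of coding genes. The region at order 3 was assigned to Abcb11, and it is the region with a mitochondrial run of 129 bp. With it set aside, Abcb11 was left with its promoter region at order 17181, with folds of 8.64 and 11.5. Abcb4, the phospholipid exporter of the canalicular membrane, had a promoter region at order 1533 with folds of 13.5 and 14.5. Acox2, a peroxisomal oxidase of bile acid side chains, had an intronic region at order 5517 with folds of 11.0 and 8.67. Cyp7a1, the rate-limiting enzyme of bile acid synthesis, had a promoter region at order 29557 and 6 distal regions, and it was chosen after its values were seen. Baat, Cyp8b1 and Abcc2 had distal regions only, 3, 2 and 5.

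The list of cytochromes P450 and conjugation enzymes had promoter regions in 13 of 24 cases (54.2%), beside 54.9% of all coding genes. This count moved with the limit, to 6 with 25000 intervals per library and to 23 both with all deposited intervals and with q under 0.05, and it was 14 in replicate 1 alone and 18 in replicate 2 alone. Among its CpG-poor members 9 of 20 had a promoter region (45%), beside 14.8% of CpG-poor coding genes. Distal regions were found at 20. Por, the reductase that serves the cytochromes, had the strongest promoter region of any hepatocyte list at order 351, with folds of 15.0 and 16.4. Ugt1a1, which conjugates bilirubin, had an intronic region 1902 bp from its start at order 850 with folds of 10.3 and 8.56. Gstm1 had a promoter region at order 4458 with folds of 9.91 and 9.92. Cyp2b10, Ugt2b5 and Cyp1a2 had distal regions only, with best orders of 7463, 15436 and 23878.

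Hepatocyte genes outside the limit mostly had weaker intervals at their promoters. Of the 31 hepatocyte genes without a shared promoter region, 28 had a promoter interval in the full lists of both libraries, 1 in only 1 library and 2 in none, Creb3l3 and Cyp2a5. Over all coding genes without one, 1730 of 9849 had an interval in both full lists and 7116 in none. With all deposited intervals, 130 of 133 hepatocyte genes (97.7%) had a promoter region, against 62.6% of coding genes.

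**Figure D5:**
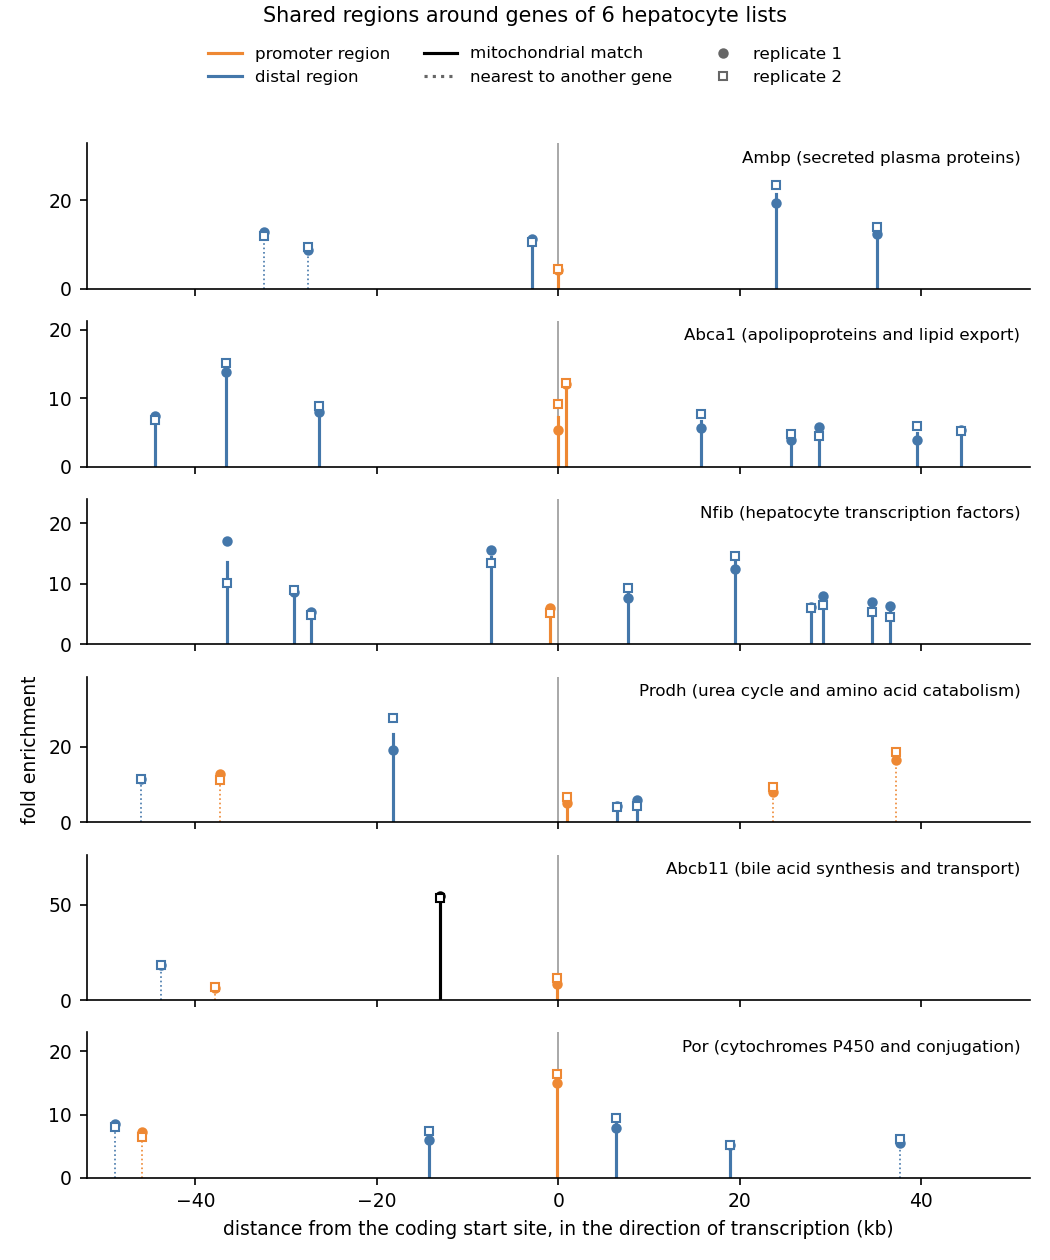
Each row shows the shared regions within 50 kb of a coding start of the gene with the strongest region in 6 of the hepatocyte lists, by distance from that start in kb on the x axis and fold enrichment on the y axis, with filled circles for replicate 1 and open squares for replicate 2. Lines reach the mean of both, dotted where another gene is nearer, and the black line at Abcb11 is the region with a mitochondrial run, with folds of 54.5 and 53.4.

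Distal regions of hepatocyte genes seldom held CTCF. Of the 352 distal regions given to hepatocyte genes, 14 (3.98%) held the CTCF motif, against 12.8% of the 19051 given to any coding gene. C/EBP motifs were in 16.8% against 14.7%, FOXA motifs in 13.6% against 11.9% and HNF4 motifs in 3.12% against 4.05%. The short hepatocyte motifs were thus about as frequent near these genes as near coding genes at large, with 11 to 59 regions behind each share. In the promoter regions of hepatocyte genes the GC box was in 17 windows (13.6%) against 28.4% of the promoter windows of all coding genes, and FOXA was in 11 (8.80%) against 3.81%. FOXA matches were nonetheless rarer in these summit windows than in their own flanks, at 11.2%.

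The markers of other liver cell types bear on the label. Of 76 such genes, 12 (15.8%) had a shared promoter region, below the 54.9% of all coding genes, and among CpG-poor ones 7 of 59 (11.9%) did, beside 14.8%. The latter count was 2 with 25000 intervals per library, 12 with all deposited intervals, 11 with q under 0.05 and 4 with promoters within 500 bp, and it was 12 with promoters within 2500 bp, where its share turned to 20.3% beside 19.5%. Of the 64 without one, 10 had a promoter interval in both full lists and 43 in neither. Endothelial markers had a promoter region in 2 of 16 cases, Kupffer and myeloid markers in 1 of 16, stellate and fibroblast markers in 5 of 16, biliary markers in 4 of 14 and lymphocyte markers in 0 of 14. For 2 of the 16 lymphocyte symbols listed, Trac and Ighm, no protein-coding start was annotated. Where these genes had regions, the median folds stood above those of hepatocyte genes, at 10.6 and 8.69 for promoters beside 5.98 and 6.71, and at 9.76 and 9.63 for distal regions beside 6.66 and 6.79. By order their promoter regions were weaker, with a median of 25390 beside 18919. Their distal regions were about level, at 24508.5 beside 24746.5. The part of other cells in these regions was not tested.

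Of the 16 Kupffer and myeloid markers, 11 had no promoter interval in either full list, Timd4, Vsig4 and Cd5l among them. Cd68 and Mpeg1 had weak intervals in both full lists, ranked from 83057 to 93386, and Clec4f and Adgre1 in 1 library each, at 105741 and 101007. Of the 16 endothelial markers, 9 had none in either list, Lyve1, Stab1, Stab2 and Clec4g among them, while Egfl7, Kdr and Cdh5 had intervals in both but no shared promoter region. That of Egfl7 ranked 43231 in replicate 1, inside the 50000 kept, and 67788 in replicate 2, and those of the other genes ranked from 61895 to 89918. The Kupffer and myeloid promoter was that of Cd14, with folds of 8.02 and 7.82, and the endothelial ones were Tie1, with 12.5 and 15.8, and Fcgr2b, with 10.3 and 7.61. Epcam, a biliary marker with a CpG-rich promoter, differed most between the libraries of the 12, with folds of 17.8 and 9.60. These 4 and the markers named before them were chosen after their values were seen. Distal regions nearest to markers of other cell types were found at 43 of the 76 genes (56.6%) beside 42.8% of all coding genes, and the nearest gene is not necessarily the one a region controls.

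The best regions of these lists were mostly distal. Endothelial genes were led by Egfl7, Vwf and Lyve1, at orders 6175, 11102 and 13685. Kupffer and myeloid genes were led by Ptprc, Adgre1 and Spi1, at orders 6819, 8896 and 17429, the last with a CTCF motif. Stellate and fibroblast genes were led by Col1a1, Des and Tagln, at orders 10971, 14161 and 18087, and biliary genes by Prom1, Ehf and Spp1, at 4094, 5206 and 5482. Lymphocyte genes were led by Klrb1c, Cd4 and Pax5, at orders 1207, 14117 and 28214, of which the first lay 24277 bp from the start of Klrb1c.

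Ribosomal protein genes, which every cell transcribes, had promoter regions in 22 of 24 cases and distal regions in 8 (33.3%), beside 42.8% of all coding genes and 85.0% of hepatocyte genes. All 24 are CpG-rich, and their promoter share of 91.7% stands beside 80.9% of CpG-rich coding genes. Rps20 led at order 814 with folds of 19.6 and 18.6, followed by Rpl7 at order 1093 with 10.6 and 13.2 and Rpl30 at order 3179 with 15.8 and 16.9. Of 24 genes of other organs, 6 (25%) had a promoter region, beside 54.9% of all coding genes. They were 1 of 16 CpG-poor members (6.25%, beside 14.8%) and 5 of 8 CpG-rich ones (62.5%, beside 80.9%). This list was led by Neurog2, a neural factor, with a promoter region at order 2765 and folds of 19.6 and 19.8. Gata4 and Mbp followed with distal regions at orders 3337 and 3797.

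Regions were spread over the autosomes at 13.1 to 21.9 per Mb. The X chromosome had 679 regions, 3.97 per Mb, of which 51.5% were promoters, and the Y chromosome had 4. Median folds on the X were 10.8 and 10.1, the highest of the chromosomes in both libraries, beside 9.99 and 9.72 over the whole map. By rank its regions were weaker than the map at large, with a median order of 23274 beside 20889.5. Chromosome 15 was nearly level with it, at 23258, and the other autosomes were stronger by this measure.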

How the data were processed

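Nuclei of perfused hepatocytes were profiled by ATAC-seq in 2 libraries of the 0 h group, and the lists of the other time points were not used here. According to the study's methods, the authors trimmed reads, aligned them to mm10 with Bowtie2, removed PCR duplicates and called peaks with MACS2. Abbreviations carried by the deposited lists name a Tn5 step, which the methods do not describe, and each library has its own list. Versions are not given in the sources used here. The deposited lists hold a score, a fold enrichment over local background, and −log10 p and −log10 q values for each peak, as the authors' peak caller wrote them. The lists give no read counts, so depth is unknown and no counting interval could be given.

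Rows with the same interval were collapsed to the highest −log10 p, the 50000 highest were kept per library, and intervals were merged (Python 3.11.15, pandas 2.3.3, numpy 2.4.6). Regions with any base within 1 kb of a start were called promoters and the others were classed by their summit, with GENCODE M21 basic genes on GRCm38.p6. Motif matching and merging were tested on simulated data. No test was made, since all samples were of 1 group. Genes were named by rule, as the 3 with the strongest region in each list and, in hepatocyte lists, up to 3 without a promoter region, and exceptions are stated; of the regions, the first 10 overall and the first 10 distal ones were described with values. Some genes that the rule names are not reported here. The members and lists were chosen with earlier results of these data known. Alternatives changed the number of intervals kept, the overlap, the promoter distance, the motif window and the libraries used.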

Additional observations from a re-analysis of the deposited data

How the results depend on the processing

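The number of shared regions, 41778, was 20276 with 25000 intervals kept per library, 81114 with all deposited intervals and 76538 with all intervals of q under 0.05. Under these 3 settings the promoter share was 47.9%, 23.0% and 23.7%, beside 32.9%, and the share of distal windows with CTCF was 10.9%, 9.31% and 9.80%, beside 11.8%. The promoter share was 33.6% when each library had to cover 50% of a region, 30.9% when 200 bp around each summit were used, and 30.4% and 38.7% with promoters within 500 bp and 2500 bp. For the 1000 strongest regions it was 89.5%, 89.1%, 89.3% and 90.4% in the same order, beside 89.6%. It was 89.9% without regions that match the mitochondrial genome, an alternative chosen after seeing the data. With 1 library alone the promoter share ranged from 29.7% to 30.1%, that of the 1000 strongest from 88.4% to 88.5%, and the CTCF share from 11.2% to 11.7%. With 25000 intervals, 57 hepatocyte genes had a promoter region and 74 a distal region, beside 102 and 113, and 3 genes of other cell types had a promoter region, beside 12. All deposited intervals raised that last count to 22, and the q limit gave 20. HNF4 matches were in 5.94% of 400 bp windows, beside 4.51% of 200 bp windows, as longer windows hold more sequence. The count of coding genes with a promoter region stayed within 1.5 times of 12002 under every alternative run. No paired analysis was possible because the libraries form 1 group and no result comes from a test.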

Other observations

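Some genes outside the lists had many distal regions, and they were chosen after their values were seen. Cmip had 17, Pde4d 16, Sept9 15 and Prkag2 14, while 12498 of 21851 coding genes had none. Prkag2 encodes a regulatory subunit of the AMP-activated kinase. Repeats masked in the reference covered more than 50% of the sequence in 663 shared regions (1.59%).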
